A study of Mus musculus with 7 samples.

Results

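Fc receptors read the constant part of antibodies. The transcripts described here belong to 6 genes: Fcgrt, Fcgr1, Fcgr2b, Fcgr3, Fcgr4 and Fcer1g, chosen by name out of 19505 named genes on the array, each with 1 probe set. They were measured in microglia, the resident macrophages of the brain, from mice with the 5xFAD transgenes, which are expressed under a neuronal promoter and drive amyloid plaque formation. There were 4 arrays of 5xFAD;B2m-/- mice and 3 arrays of 5xFAD;B2m+/+ mice, so every animal carried the amyloid transgenes, and the strain given for both groups was C57BL/6. Viable cells carrying CD45 and CD11b were sorted from brain. This gate also admits other myeloid cells, and age, sex and any pooling of animals are not stated in the labels.

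Classical Fc gamma receptors bind IgG on the cell surface and fall into activating and inhibitory kinds. In the mouse Fcgr1, Fcgr3 and Fcgr4 encode activating receptors, which depend on the common gamma chain encoded by Fcer1g for surface expression and for a tyrosine-based activation motif that recruits the kinase Syk. Fcgr2b carries an inhibitory motif that recruits the lipid phosphatase encoded by Inpp5d. Fcgrt encodes the heavy chain of the neonatal Fc receptor, FcRn, a relative of MHC class I molecules that pairs with beta-2-microglobulin, the product of B2m, and returns IgG and albumin from acidic endosomes to the cell surface. Microglia use activating Fc receptors to take up material coated with antibody, which includes amyloid when anti-amyloid antibodies are present.

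Promoter sequences of 3 members are shown, to set Fcgr1 and Fcgr4, activating receptors whose stretches hold a PU.1 core, beside the neonatal receptor Fcgrt, whose stretch holds none. Each is the stretch of 250 bases before the first listed transcription start in RefSeq, build GRCm38.p6, written 5′ to 3′ on the gene's strand. All 6 members had an entry. Capitals mark matches, on either strand, to GAGGAA (the core bound by the myeloid factor PU.1) and GAAA followed after any 2 bases by GAAA (the core of the interferon-stimulated response element). The Fcgr1 stretch lies at chr3:96293970-96294219 on the minus strand, that of Fcgr4 at chr1:171018676-171018925 on the plus strand and that of Fcgrt at chr7:45103823-45104072 on the minus strand.
Fcgr1: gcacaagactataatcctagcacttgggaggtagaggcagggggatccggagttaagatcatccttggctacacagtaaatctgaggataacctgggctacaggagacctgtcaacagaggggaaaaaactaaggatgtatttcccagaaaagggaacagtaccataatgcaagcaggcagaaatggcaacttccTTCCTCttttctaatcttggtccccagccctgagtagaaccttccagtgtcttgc
Fcgr4: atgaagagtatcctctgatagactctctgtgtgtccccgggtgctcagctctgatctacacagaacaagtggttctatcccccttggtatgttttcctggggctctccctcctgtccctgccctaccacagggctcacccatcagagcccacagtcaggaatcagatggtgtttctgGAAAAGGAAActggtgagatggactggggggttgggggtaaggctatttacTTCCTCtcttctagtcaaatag
Fcgrt: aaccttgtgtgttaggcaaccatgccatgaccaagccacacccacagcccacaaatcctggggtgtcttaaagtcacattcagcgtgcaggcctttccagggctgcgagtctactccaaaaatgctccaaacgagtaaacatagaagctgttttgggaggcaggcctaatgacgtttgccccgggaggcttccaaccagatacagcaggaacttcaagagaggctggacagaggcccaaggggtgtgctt
The PU.1 core was present in 3 of the 6 members, Fcgr1, Fcgr3 and Fcgr4, and in 23.1% of 27025 promoters of the same length. The interferon-stimulated letters were found in Fcgr4 alone among the 6 and in 3.04% of all promoters. No 2 matches overlapped in these stretches. The Fcgrt stretch held none of these letters, as did those of Fcgr2b and Fcer1g, and nothing about the binding of any factor follows from these matches.

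No difference was detected in any of the 6 Fc receptor transcripts between microglia with disrupted and intact B2m. All 6 were tested, and 0 passed an adjusted p of 0.05 in limma, where 0.05% of all 10004 genes tested passed. At an unadjusted p under 0.05 the members again counted 0, against 11.9% of all genes tested (8.39% higher and 3.54% lower in knockout arrays). The values of both genotypes overlapped for every member, while 10.9% of all genes tested had no overlap. All values are log2 expression as deposited, and differences are knockout minus wildtype. B2m itself lay between 10.24 and 10.56 in knockout arrays and between 13.39 and 13.42 in wildtype arrays, so the arrays matched their labels.

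**Figure D1:**
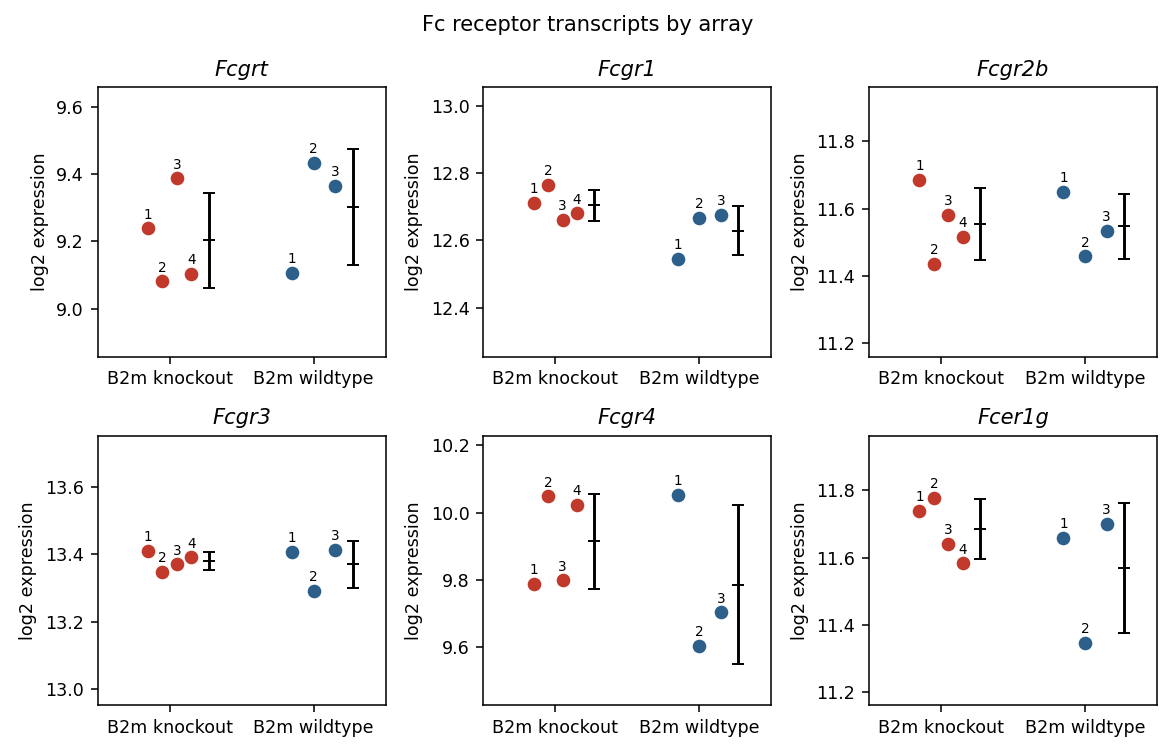
Log2 expression of each Fc receptor gene (vertical axis, each panel spanning the same range of log2 units) in knockout arrays (left, red) and wildtype arrays (right, blue); numbers are replicates, and bars are the mean and SD of 4 knockout and 3 wildtype arrays. Every panel shows overlapping genotypes, and wildtype replicate 2 is the lowest of all arrays for Fcgr3, Fcgr4 and Fcer1g and the highest for Fcgrt.

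Fcgrt, the gene whose protein needs beta-2-microglobulin as its partner, read 9.24, 9.08, 9.39 and 9.10 in the knockout arrays, against 9.11, 9.43 and 9.36 in the wildtype arrays. The highest and lowest values of both genotypes lay side by side, with wildtype replicate 1 close to knockout replicates 2 and 4. The means were 9.20 ± 0.14 (SD, n = 4) in knockout and 9.30 ± 0.17 (SD, n = 3) in wildtype arrays. The difference was -0.10 (SE 0.12, 95% confidence interval -0.36 to 0.17, limma adjusted p = 0.781), and 13 of the 35 possible splits of the arrays gave one at least as large (two-sided exact permutation p = 0.371, where 35 splits allow no p below 0.0286). Leaving out wildtype replicate 1 moved it to -0.20 and leaving out wildtype replicate 2 to -0.032. For comparison, the B2m difference on the same scale was -2.99 (SE 0.10). Fcgrt was dim: its values lay between the 92.2nd and 94.9th percentiles of the array's negative control rows in knockout arrays and between the 93.1st and 95.1st in wildtype arrays. Only 1 of 7 arrays, wildtype replicate 3, exceeded the 95th percentile. No fold is therefore given, and a change in Fcgrt mRNA may be understated at this level. The array reads RNA, and FcRn protein was not measured in these files.

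Fcgr1, the high-affinity IgG receptor also called CD64, was a bright and steady member. It read 12.71, 12.76, 12.66 and 12.68 in knockout arrays, against 12.54, 12.67 and 12.68 in wildtype arrays. Knockout replicates 1, 2 and 4 lay at or above the highest wildtype value, and knockout replicate 3 stood within the wildtype range. The difference was 0.075 (SE 0.093, limma adjusted p = 0.785), a ratio of 1.05 with a 95% confidence interval of 0.914 to 1.21. It had the lowest exact permutation p of the 6 members (two-sided p = 0.171). Its residual SD, the spread within genotypes, was 0.058, and 2.35% of the genes tested had a smaller one.

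Fcgr3, the low-affinity activating receptor CD16, was the steadiest member. It read 13.41, 13.35, 13.37 and 13.39 in knockout arrays, against 13.41, 13.29 and 13.41 in wildtype arrays. The knockout arrays all lay within the wildtype range. The difference was 0.0094 (SE 0.091, limma adjusted p = 0.979), a ratio of 1.01 with an interval of 0.875 to 1.16. The residual SD was 0.048, smaller than in all but 1.1% of genes tested. The interval is wider than this spread alone would give, because limma draws each gene's variance towards that of the other genes. Fcgr3 lay above 99.89% to 99.92% of named genes, at the top of the scale, where array signals can be compressed; whether they were here was not tested.

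Fcgr4, an activating receptor that binds IgG2a and IgG2b, was the most variable member. It read 9.79, 10.05, 9.80 and 10.02 in knockout arrays, against 10.05, 9.60 and 9.70 in wildtype arrays. Wildtype replicates 2 and 3 were the lowest of the 7 arrays, and wildtype replicate 1 was the highest. The difference was 0.13 (SE 0.13, limma adjusted p = 0.733), a ratio of 1.09 with an interval of 0.893 to 1.34. This value rested on single arrays: it was 0.26 with wildtype replicate 1 left out and 0.037 with wildtype replicate 2 left out. Within-genotype spread was 0.18, larger than in 63.0% of genes tested.

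Fcer1g, the shared signalling chain of the activating receptors, read 11.74, 11.78, 11.64 and 11.58 in knockout arrays, against 11.66, 11.35 and 11.70 in wildtype arrays. A single array, wildtype replicate 2, stood below the other 6. The difference was 0.12 (SE 0.11, limma adjusted p = 0.721), a ratio of 1.08 with an interval of 0.908 to 1.29. Without wildtype replicate 2 it was 0.0048, so nearly all of it came from that array.

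Fcgr2b, the inhibitory receptor, read 11.69, 11.44, 11.58 and 11.52 in knockout arrays, against 11.65, 11.46 and 11.53 in wildtype arrays. The arrays of both genotypes interleaved. The difference was 0.0064 (SE 0.10, limma adjusted p = 0.987), a ratio with an interval of 0.858 to 1.18. Fcgr2b and Fcgr3 encode extracellular parts of very similar sequence, so their probes could read each other's transcript; which bases the probes match was not analysed here.

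Because Fcgr2b sets the threshold against the activating receptors, its level was also expressed within each array as Fcgr2b minus the mean of Fcgr1, Fcgr3 and Fcgr4 in log2 units. Only the change of this quantity between genotypes can be read, since different probe sets have no common scale. It was -0.29, -0.62, -0.36 and -0.52 in knockout arrays, against -0.35, -0.40 and -0.40 in wildtype arrays. The means were -0.45 ± 0.15 (SD, n = 4) in knockout and -0.38 ± 0.026 (SD, n = 3) in wildtype arrays. The wildtype arrays lay close together inside the knockout range, so the balance differed by less than the spread between knockout arrays.

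**Figure D2:**
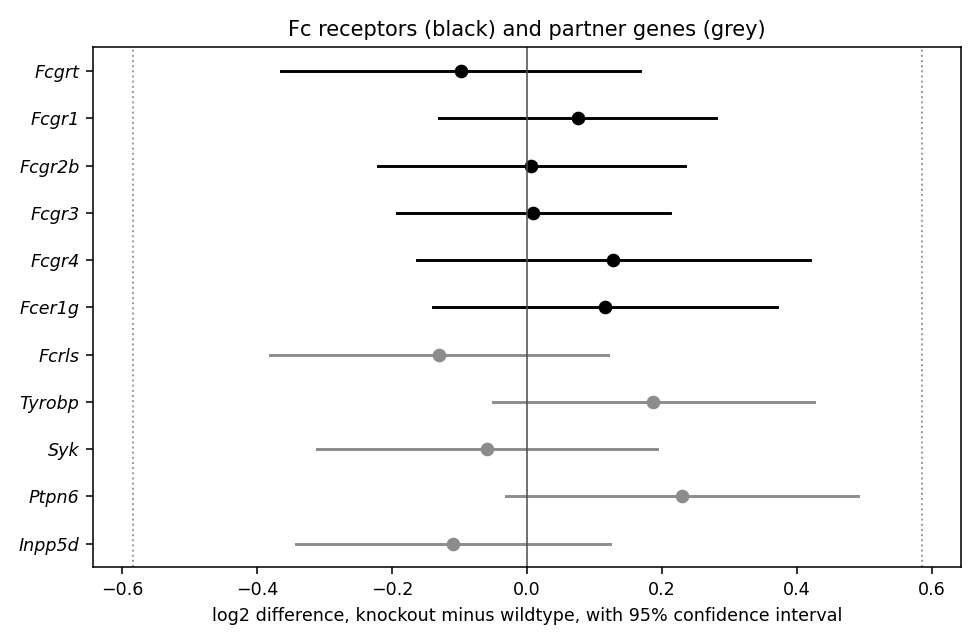
Log2 difference, knockout minus wildtype (horizontal axis), with its 95% confidence interval from limma for the 6 Fc receptor genes (black) and 5 partner genes (grey); dotted lines mark 1.5-fold in either direction. Every interval crosses 0 and none of the 6 receptor intervals reaches a dotted line; the Fcgrt signal was near background.

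For the 5 members above the 95th percentile of negative control rows on every array, the intervals give the range of differences in signal that these arrays leave possible. They ran from -0.22 for Fcgr2b to 0.42 for Fcgr4 and did not reach 1.5-fold in either direction. Without wildtype replicates 1 and 2 together the upper bound for Fcgr4 was 0.60, past 1.5-fold. The Fcgrt interval of -0.36 to 0.17 covers its signal near background and sets no bound on its mRNA. For the other 5 members, differences inside the intervals could not be told apart from 0 with 4 against 3 arrays. The smallest detectable change was not computed.

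The highest and lowest arrays were not the same for all members. Wildtype replicate 2 was the lowest of the 7 arrays for Fcgr3, Fcgr4 and Fcer1g and the highest for Fcgrt. Knockout replicate 2 was the lowest for Fcgrt and Fcgr2b and the highest for Fcgr1 and Fcer1g. Wildtype replicate 1 was the lowest for Fcgr1 and the highest for Fcgr4. The 5 genes whose profile over the 7 arrays was most like that of Fcgrt, among 9680 named protein-coding genes, were Slc25a38, which encodes a mitochondrial glycine carrier, Carmil3, Zfp771, Fam241b and Efcab11. Their Pearson r with Fcgrt ran from 0.944 to 0.959 over 7 arrays, and from 0.898 to 0.992 without knockout replicate 2 and wildtype replicate 2, the arrays farthest from the Fcgrt median. All 5 lay below the 95th percentile of negative control rows in every array, so the likeness is among dim genes on the same arrays. For Fcer1g the 5 most alike were Nol12, the activation marker Cd69, Fam53a, the chaperonin subunit Cct5 and the MAP kinase phosphatase Dusp2. Their r ran from 0.961 to 0.989, and from 0.857 to 0.981 without the same 2 arrays. In each of these 5 the lowest array was wildtype replicate 2, as in Fcer1g. In all, 26 genes had an r above 0.9 with Fcgrt and 38 with Fcer1g, and no p is attached because these genes were ranked out of many.

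Genes that work with the Fc receptors were described from lists of 101 genes, of which 75 were tested. Among them 0 passed in limma. An unadjusted p under 0.05 was reached by 7 genes higher and 2 genes lower in knockout arrays, together 9 of the 75, where 11.9% of all genes tested did so. Among the 7 was Cd300lb, which met the filter through knockout arrays and was near background. Over all genes tested the median difference was -0.0055, with 4866 above 0 and 5138 below.

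**Figure D3:**
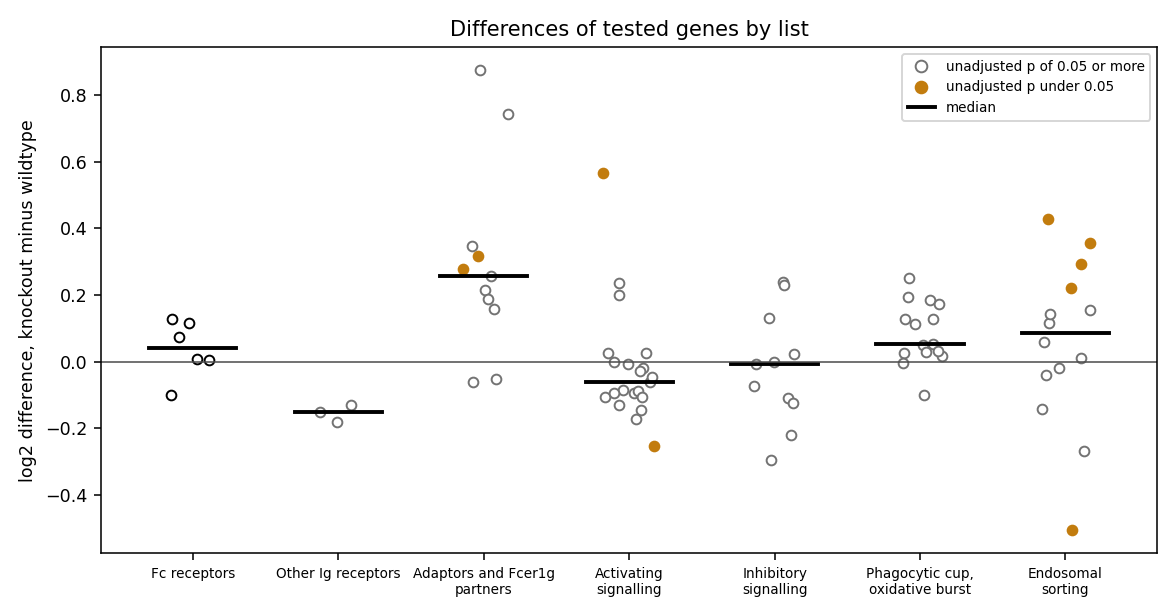
Log2 difference, knockout minus wildtype (vertical axis), of each tested gene in the Fc receptor group and in 6 lists of related genes; filled points have an unadjusted p under 0.05, and bars are list medians. The Fc receptors lie within 0.13 of 0. The highest points, Clec4d and Clec4e, belong to the list of adaptors and of receptors that pair with Fcer1g or its relatives. Clec4d passed the filter through knockout arrays alone, Cd300lb of the same list met it through knockout arrays, and both were near background. The median of that list includes both.

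Of 12 other immunoglobulin receptors and Fc receptor-like genes only 3 were bright enough to be tested, and 0 had an unadjusted p under 0.05 in limma. Fcrls, a receptor-like gene typical of resting microglia, read 12.15 to 12.37 in knockout arrays and 12.27 to 12.62 in wildtype arrays, with a difference of -0.13 (SE 0.11). Fcrl1, a receptor-like gene best known in B cells, differed by -0.18 (SE 0.11) and Fcmr, the IgM receptor, by -0.15 (SE 0.12). Fcmr did not exceed the 95th percentile of negative control rows on any array. Trim21, the cytosolic antibody receptor, lay under the filter, at 6.12 to 6.73 in knockout and 6.02 to 6.42 in wildtype arrays. The IgE receptor chains Fcer1a and Ms4a2 lay below the 95th percentile of negative control rows on every array.

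Signalling adaptors, and receptors that pair with Fcer1g or its relatives, had a median difference of 0.26 over 11 tested genes. Of these 9 lay above 0. The median and this count include Cd300lb and Clec4d, which met the filter through knockout arrays, so both depend on that filter. Tyrobp, which encodes the adaptor DAP12, read 12.91 to 13.11 in knockout and 12.72 to 12.98 in wildtype arrays, a difference of 0.19 (SE 0.11, limma adjusted p = 0.514). Hcst, which encodes the adaptor DAP10, differed by 0.28 (SE 0.10, limma adjusted p = 0.348) with no overlap between genotypes. It was the only 1 of the 11 genes without overlap, where 10.9% of all genes tested had no overlap. Cd300lb read 8.10, 8.13, 8.24 and 7.83 in knockout arrays, against 7.67, 7.65 and 7.96 in wildtype arrays. It met the filter, set by array medians of 7.925 to 7.988, through knockout replicates 1, 2 and 3. Wildtype replicates 1 and 2 lay under those medians, so no difference is given for Cd300lb. Hcst and Cd300lb lay below the 95th percentile of negative control rows on every array. Trem2, the lipid-sensing receptor that signals through DAP12, differed by 0.21 (SE 0.11, limma adjusted p = 0.464). Clec4d, a C-type lectin that signals through the common gamma chain, read 7.49, 8.52, 8.08 and 9.96 in knockout arrays, against 7.68, 7.81 and 7.43 in wildtype arrays. Knockout replicate 4 was the highest, and neutrophil and monocyte markers were also highest in that array; their part in the Clec4d values was not tested. Clec4d entered the test through 3 knockout arrays, since its wildtype values all lay under the array medians over named genes (7.925 to 7.988) that set the filter, and 1 of 7 arrays exceeded the 95th percentile of negative control rows. No difference is therefore given for Clec4d, and Cd300lb and Clec4d are both among the 9 genes above 0 in this list.

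Among 21 tested genes of activating signalling the median difference was -0.060, with 5 above 0 and 16 below. Syk, the kinase that docks on the gamma chain, read 10.68 to 10.89 in knockout and 10.62 to 10.97 in wildtype arrays, a difference of -0.060 (SE 0.11, limma adjusted p = 0.872). Fgr, a Src-family kinase of myeloid cells, had the smallest unadjusted p of the lists, at 0.57 (SE 0.16, limma adjusted p = 0.315). It read 8.27, 8.94, 8.89 and 8.85 in knockout arrays, against 8.16, 8.28 and 8.08 in wildtype arrays, below the 95th percentile of negative control rows throughout. Knockout replicate 1 stood within the wildtype range, and it was also the knockout array lowest in neutrophil and monocyte markers. The part of those cells in the Fgr values was not tested. Plcg1, a phospholipase C, differed by -0.25 (SE 0.096, limma adjusted p = 0.372), the adaptor Grb2 by 0.20 (SE 0.10) and the adaptor Lat2 by 0.24 (SE 0.12). The genotypes did not overlap for 2 of the 21 genes, Plcg1 and Grb2, where 10.9% of all genes tested had no overlap. Plcg1 exceeded the 95th percentile of negative control rows on 3 arrays.

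Among 11 tested genes of inhibitory signalling the median difference was -0.0066, with 4 above 0 and 7 below, and 0 had an unadjusted p under 0.05 in limma. Inpp5d, the phosphatase that Fcgr2b recruits, read 12.62 to 12.95 in knockout and 12.89 to 12.96 in wildtype arrays, a difference of -0.11 (SE 0.10, limma adjusted p = 0.712). Ptpn6, a tyrosine phosphatase that docks on inhibitory motifs, differed by 0.23 (SE 0.12, limma adjusted p = 0.477), its relative Ptpn11 by -0.22 (SE 0.12), the docking protein Dok1 by 0.24 (SE 0.11) and the ubiquitin ligase Cblb by -0.29 (SE 0.17). Ptpn11 exceeded the 95th percentile of negative control rows on 2 arrays and Dok1 on 4. The genotypes did not overlap for 2 of the 11 genes, Dok1 among them, where 10.9% of all genes tested had no overlap.

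Genes of the phagocytic cup and the oxidative burst, the steps that follow receptor engagement, had a median of 0.053 over 15 tested genes. Of these 13 lay above 0, and 0 had an unadjusted p under 0.05 in limma. The actin regulators Coro1a and Arpc1b differed by 0.18 (SE 0.10) and 0.17 (SE 0.10), and the NADPH oxidase subunits Ncf4 and Cyba by 0.25 (SE 0.14) and 0.19 (SE 0.13), with limma adjusted p from 0.503 to 0.580.

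Endosomal sorting, the route along which FcRn carries its cargo, held 14 tested genes with a median of 0.087, and an unadjusted p under 0.05 was reached by 4 higher and 1 lower of them, against 8.39% higher and 3.54% lower over all genes tested. Rab11a, the small GTPase of recycling endosomes, read 12.21 to 12.35 in knockout arrays and at most 12.11 in wildtype arrays. The genotypes did not overlap, and the difference was 0.22 (SE 0.093, limma adjusted p = 0.398). Its relative Rab11b lay on the other side, at -0.14 (SE 0.092, limma adjusted p = 0.559), also without overlap, and was picked with its values in view. The retromer subunit Vps29 differed by 0.43 (SE 0.13, limma adjusted p = 0.320), the sorting nexin Snx4 by 0.35 (SE 0.11, limma adjusted p = 0.320) and the early endosome tether Eea1 by -0.51 (SE 0.21, limma adjusted p = 0.392). Snx4 exceeded the 95th percentile of negative control rows on 0 of 7 arrays and Eea1 on 1 of 7. The fourth higher gene was the early endosome GTPase Rab5c at 0.29 (SE 0.13, limma adjusted p = 0.417), picked with its values in view. Differences of the other retromer subunits, picked with their values in view, were 0.11 (SE 0.093) for Vps35 and 0.14 (SE 0.12) for Vps26a. None of these passed. In 4 of the 14 genes, Rab11a, Rab11b, Snx4 and Vps35, the genotypes did not overlap, against 10.9% of all genes tested.

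In chromosome order 4 members stood close together on chromosome 1, in the order Fcgr2b, Fcgr4, Fcgr3 and Fcer1g, followed after 13 other tested genes by Slamf7. Slamf7, a receptor of the SLAM family, read 8.44 to 9.13 in knockout and 7.47 to 7.82 in wildtype arrays. No array brought Slamf7 above the 95th percentile of negative control rows, and it entered the test through the knockout arrays, since its wildtype values all lay under the array medians of 7.925 to 7.988 that set the filter. No size of difference and no test result are therefore given for Slamf7. Among the 16 other tested genes between Fcgr2b and Slamf7, 0 passed in limma, an unadjusted p under 0.05 was reached by 1 higher and 1 lower gene, and the median difference was 0.045. Those were B4galt3, a galactosyltransferase, at 0.29 (SE 0.13) and Pcp4l1 at -0.36 (SE 0.12), both without overlap between genotypes. Pcp4l1 exceeded the 95th percentile of negative control rows on 4 arrays and B4galt3 on 6. Of the 20 tested neighbours of Fcgrt on chromosome 7, 0 passed in limma, and Nosip at 0.27 (SE 0.11) and Aldh16a1 at -0.26 (SE 0.096) had an unadjusted p under 0.05. Neither Nosip nor Aldh16a1 exceeded the 95th percentile of negative control rows on any array. The genotypes did not overlap for either gene, where 10.9% of all genes tested had no overlap. Order was taken from a reference gene table, since no source used here names the build of the array.

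Markers of other cell types that carry Fc receptors were set beside these values. All 11 microglial markers analysed were above the 95th percentile of negative control rows on every array, and their summed level, the log2 of added linear values, was 15.65 to 15.76 in knockout and 15.61 to 15.72 in wildtype arrays. Neutrophils and monocytes express activating Fc receptors. Summed neutrophil markers were 13.61, 14.21, 14.69 and 15.18 in knockout arrays, against 13.76, 14.31 and 13.64 in wildtype arrays, and 4 of 9, S100a8, S100a9, Ngp and Camp, were above that percentile on every array. Summed monocyte markers were 11.74 to 12.83 in knockout and 11.32 to 11.89 in wildtype arrays, with 4 of 7 below the percentile throughout. Fcgr4 read 9.79, 10.05, 9.80 and 10.02 in knockout arrays, against 10.05, 9.60 and 9.70 in wildtype arrays. The part of neutrophils and monocytes in these values was not tested.

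**Figure D4:**
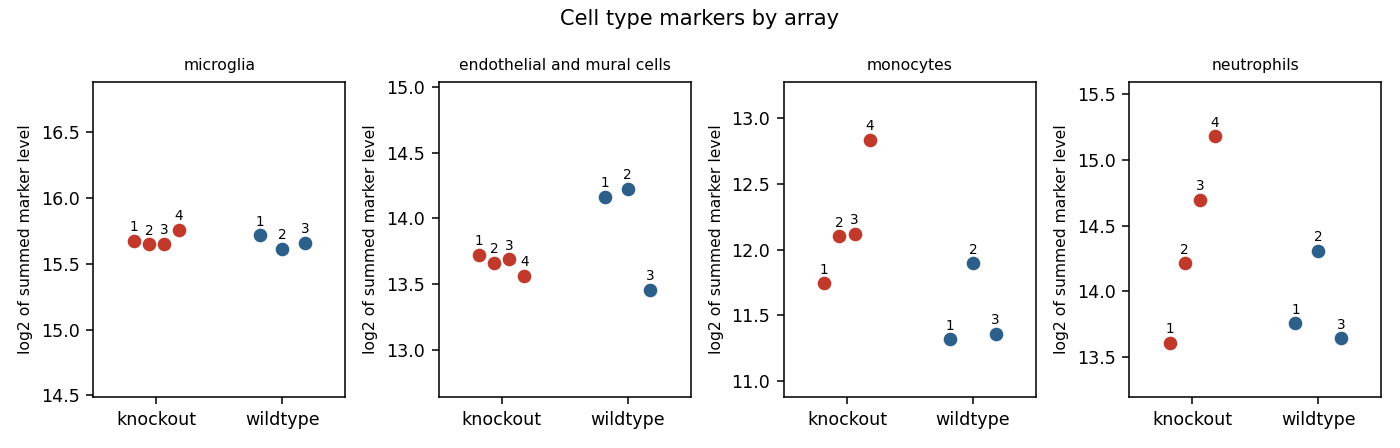
Summed level of the markers of 4 cell types (vertical axis, log2 of the summed linear values, each panel spanning the same range) in knockout (left, red) and wildtype arrays (right, blue), with replicate numbers. Microglial markers differ little between arrays, endothelial and mural markers are highest in wildtype replicates 1 and 2, and neutrophil and monocyte markers are highest in knockout replicate 4.

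Endothelial cells express FcRn. Summed endothelial and mural markers were 13.56 to 13.72 in knockout arrays, against 14.16, 14.22 and 13.46 in wildtype arrays, with 8 of 15 below the percentile throughout. Wildtype replicates 1 and 2 were both high in these markers, while Fcgrt was low in the first and high in the second. B cells, which carry Fcgr2b, had 5 of 6 markers below the percentile on every array, and all 6 markers of mast cells and basophils, all 6 of natural killer cells and all 6 of T cells lay below it. Of the dendritic markers 6 of 7 did, and of the border-associated macrophage markers 2 of 7. Another 3 border-associated macrophage markers, Mrc1, Pf4 and Stab1, were above the percentile on every array. In a sorted bulk sample fewer cells of a type and less RNA per cell cannot be told apart, and the part these cells play in the members' values was not tested.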

How the data were processed

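Microglial RNA was hybridized to 1 array per sample. Per the submitters' processing notes, the authors made the deposited log2 values per probe set with RMA (Affymetrix Expression Console 1.1); build and annotation of the array are not given in the sources used here. No further normalization was applied. Of 28846 rows, 19572 had 1 gene symbol, 0 had several and 9274 had none; symbols were updated by Entrez identifier to GRCm38.p6, and the probe set with the highest mean was kept for 55 genes with several. Genes above the array median over named genes in at least 3 arrays were tested with limma 3.58.1 (lmFit, eBayes; R 4.3.3), Benjamini-Hochberg over 10004 genes, and the code was tested on simulated data. Rows tagged neg served as negative controls, some of which are bright. Named genes were all members, B2m, fixed partners, up to 4 genes per list by smallest unadjusted p, the 5 most alike to Fcgrt and Fcer1g, and, in gene order, Slamf7 and 4 neighbours. The members and lists were chosen with earlier results of these data known. Replicates were numbered by accession and are unpaired. Whether each array stands for its own animal is not labelled, so p-values reflect a spread between samples that may be technical. The number of arrays limits precision. Alternatives covered filters, variance priors, array weights, normalization, centring, probe set averaging and arrays left out.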

Additional observations from a re-analysis of the deposited data

Results flagged for a closer look

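Among 45 groups of 4 knockout arrays checked for an array far from the others, 2 stood out, and chance alone picks about 1 in 20. For Fgr, knockout replicate 1 at 8.27 lay apart from 8.85 to 8.94 in the other knockout arrays, and the gap was 0.867 of the range. For Arpc1b, knockout replicate 3 at 12.34 lay apart from 12.45 to 12.47, with a gap of 0.895 of the range. None of the 6 Fc receptor genes was among them.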

How the results depend on the processing

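Under 17 alternatives each, 0 of the 6 Fc receptor genes passed in limma, with adjusted p of 0.545 or more. Differences of Fcgrt (-0.20 to -0.032), Fcgr1 (0.029 to 0.11) and Fcgr4 (0.037 to 0.26) kept their sign. Differences near 0 changed theirs. Fcgr2b was -0.043 after repeated quantile normalization, -0.017 when centred on microglia markers, and -0.037, -0.0024 and -0.038 without knockout replicate 1, knockout replicate 3 and wildtype replicate 2. Fcgr3 was -0.014 when centred on microglia markers, -0.000523 without knockout replicate 1, -0.031 without wildtype replicate 2 and -0.033 without wildtype replicates 1 and 2 together. In that last setting, which left 1 wildtype array assumed to vary like the others, Fcer1g was -0.016. The cause was not tested. Leaving out 1 array gave ranges of 0.0048 to 0.18 for Fcer1g, -0.038 to 0.058 for Fcgr2b and -0.031 to 0.031 for Fcgr3. Over all genes tested 5 were called, with 4 to 26 when 1 array was left out, the 26 without wildtype replicate 3. In the related lists 0 genes were called under any alternative. Those at an unadjusted p under 0.05 counted 9, with 5 under the stricter filter, where fewer genes were tested, 5 to 15 when 1 array was left out (5 without wildtype replicate 1 or 2, 15 without wildtype replicate 3) and 1 without both wildtype replicates 1 and 2. No paired analysis was possible because the labels carry no replicate numbers. Signal near background limits Fcgrt, Fgr, Hcst, Cd300lb, Clec4d, Snx4, Eea1 and Slamf7. It also limits Fcmr, Plcg1, Ptpn11, Dok1, Pcp4l1, Clec4e, Nosip, Aldh16a1, Cd69, Dusp2 and the genes most like Fcgrt.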
